A study of Mus musculus with 6 samples.

Results

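The genes described here are 9 transcripts by which endothelial-to-mesenchymal transition (EndMT) is usually read: the transcription factors Snai1, Snai2, Twist1, Zeb1 and Zeb2, and the mesenchymal products Cdh2, Vim, Fn1 and S100a4. They were chosen by symbol, and all 9 were found among the 24421 rows of the count table and passed the low-count filter. In EndMT an endothelial cell loses its junctions and takes on the shape and matrix output of a mesenchymal cell, and the process is driven above all by TGF-β. Factors of the Snail and Zeb families bind E-boxes, short DNA elements, and repress junction genes, while Twist factors bind E-boxes as dimers with E proteins. Endothelial cells also express several of these genes in their resting state, so a transcript level alone does not mark a transition.

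The cells were brain-derived mouse endothelial cells, grown in culture, co-cultured with a vascular niche for 6 days after the deletion was induced, and sorted. The 2 groups were labelled Fli-1 knockout, with deletion of the Fli-1 alleles induced by 4-OHT (4-hydroxytamoxifen), and WT, with 3 libraries each, numbered 1 to 3. The treatment label naming 4-OHT and deletion is attached to both groups alike. Not given in the sources used here were the Cre line, the deleted exons, the strain and age of the animals, and whether libraries of a group came from separate animals or cultures. P-values therefore measure only the spread between these libraries, which may be technical.

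Total counts ranged from 17550185 to 21385951 per library, and levels are given in CPM (read counts divided by the library size in megareads, after TMM scaling). Fli1 itself went against its label, at 76.8, 111 and 77.4 CPM in libraries labelled knockout and 45.3, 59.6 and 45.8 CPM in libraries labelled WT. Its log2 fold change was 0.81 ± 0.18 (SE, edgeR adjusted p = 0.878) in the comparison of the groups and 0.81 ± 0.051 (adjusted p = 1.25e-15) in the paired test described below. A count over the whole gene does not check a deletion of part of it, and all directions below are those of the libraries as labelled. The 12 endothelial markers were all present, summing to 15314 to 17174 CPM in libraries labelled knockout and 15048 to 16213 CPM in libraries labelled WT. Of the 12 brain endothelial markers, Slc2a1, a glucose transporter, averaged 513 ± 108 CPM in libraries labelled knockout and 514 ± 105 CPM in libraries labelled WT (SD, n = 3 each). Mfsd2a, a lipid transporter of the blood-brain barrier, was close to absent at 0.19 to 0.48 CPM over all 6 libraries. Lef1, Slc38a5 and Foxq1 of the same list were low too, at 0.38 to 0.86, 0 to 0.12 and 0.38 to 0.86 CPM. Slco1a4 had 0.99 to 3.39 CPM, and every other gene of that list had 13 CPM or above in all libraries.

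The replicate number separated libraries more than the label did. The chi-square per degree of freedom between libraries was 5.44 to 7.13 for same-numbered libraries of the 2 groups and 9.35 to 34.7 for libraries of 1 group. The 14 fibroblast markers summed to 159, 1123 and 496 CPM in libraries 1 to 3 labelled knockout, against 214, 1567 and 523 CPM in libraries labelled WT, so both libraries numbered 2 held the most. The 12 mural cell markers summed to 1446 to 1895 CPM in libraries labelled knockout and 1427 to 2256 CPM in libraries labelled WT. Most of this was Tagln and Acta2, with means of 1177 and 475 CPM in libraries labelled knockout and 1096 and 536 CPM in libraries labelled WT. The sum therefore says little of the other mural genes. All of the list but Tagln, Rgs5 and Cnn1 were highest in number 2 of both groups. In bulk libraries, fewer cells of a type and less RNA per cell cannot be told apart. Because libraries of the same number deviated together, 2 tests are given: edgeR's quasi-likelihood test of the groups, and a paired test, which adds the replicate number to the model as a block. Both were fitted over 12753 genes, with Benjamini-Hochberg adjustment over all of them and a false discovery rate of 0.05.

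None of the 9 genes passed without the block, and 1 of 9, Fn1, passed the paired test, higher in libraries labelled knockout. Over all tested genes, 0.00784% were called without the block and 8.81% in the paired test, or 4.81% higher and 4.01% lower, so 1 of 9 is near the background. The unblocked edgeR test called 0 genes higher and 1 lower, and 611 genes had an unadjusted p under 0.05, none of the 9 among them. The median log2 fold change of the 9 genes was 0.02 in the paired test, and that of all tested genes was -0.0033. The median of the 9 turned to -0.01 with library size alone and to -0.045 without pair 3. With TMM scaling 613 genes were higher and 511 lower in the paired test, and with library size alone 471 were higher and 734 lower. In both groups 6 of the 9 genes were highest in number 2, and the share of all tested genes that were so was not counted.

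**Figure D1:**
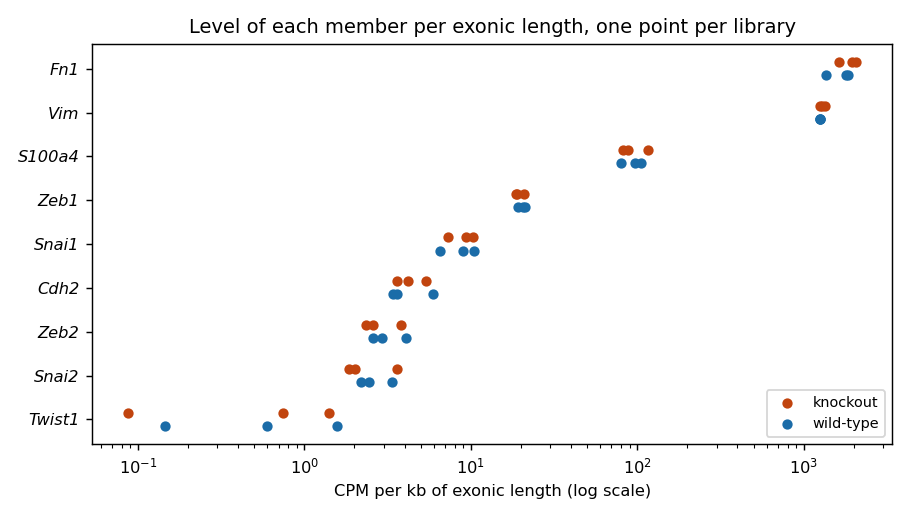
Level of each gene in CPM per kb of exonic length, on a log axis, with 1 point per library (knockout above, wild-type below). Fn1 and Vim lie at or above 1246 CPM per kb in every library and Twist1 lies below 1.58 CPM per kb in every library.

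Levels of different genes were compared per kilobase of exonic length, taken from GENCODE M21 on GRCm38. This length joins the exons of all annotated transcripts of a gene, so it can exceed that of any single transcript. It was 1621 bases from 1 transcript for Snai1, 4743 from 6 for Vim, 11685 from 17 for Fn1 and 19942 from 29 for Zeb2. Genes with many transcripts can therefore come out too low, and the order below holds for this measure only. Fn1 was at the top, with means of 1881 ± 232 CPM per kb in libraries labelled knockout and 1665 ± 258 CPM per kb in libraries labelled WT (SD, n = 3 each). Vim followed at 1297 ± 49.5 CPM per kb in libraries labelled knockout and 1249 ± 3.82 CPM per kb in libraries labelled WT. S100a4 had 82.3 to 115.8 CPM per kb in libraries labelled knockout and 79.6 to 105.1 CPM per kb in libraries labelled WT. Among the transcription factors, Zeb1 stood first, at 19.6 ± 1.14 CPM per kb in libraries labelled knockout and 20.3 ± 0.914 CPM per kb in libraries labelled WT. Snai1 was second, at 8.99 ± 1.55 CPM per kb in libraries labelled knockout and 8.67 ± 2.02 CPM per kb in libraries labelled WT. Cdh2, Zeb2 and Snai2 came next, at means of 4.38, 2.92 and 2.49 CPM per kb in libraries labelled knockout and 4.31, 3.20 and 2.68 CPM per kb in libraries labelled WT. Twist1 was lowest, at 0.749 ± 0.662 CPM per kb in libraries labelled knockout and 0.773 ± 0.731 CPM per kb in libraries labelled WT. The order of these 9 genes was the same in 6 of 6 libraries. All of them were divided by the same lengths, so this does not check the lengths. The ranges of Cdh2, Zeb2 and Snai2 over the 6 libraries overlapped one another, and no other neighbours in the order had overlapping ranges.

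Snai1 (ENSMUSG00000042821, GRCm38 chromosome 2, 167538195 to 167542814, plus strand) encodes a zinc finger repressor that is induced early in response to TGF-β. It had 11.8, 16.7 and 15.2 CPM in libraries 1 to 3 labelled knockout, against 10.5, 17.1 and 14.5 CPM in libraries labelled WT. The groups overlapped, and in both of them number 1 was lowest and number 2 highest. The log2 fold change was 0.05 ± 0.20 (SE, 95% interval -0.43 to 0.54, adjusted p = 0.996) without the block and 0.06 ± 0.090 (-0.12 to 0.24, adjusted p = 0.78) in the paired test.

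The promoter of Snai1 is shown because it alone held CACCTG, the E-box sequence recognised by Snail and Zeb factors, among 8 promoter windows. These RefSeq windows covered 5 of the genes, Snai1, Twist1, Zeb2, Vim and S100a4, and Zeb2 had several, some of them overlapping. No window was at hand for Snai2, Zeb1, Cdh2 or Fn1, so their promoters were not searched. In human cells Snail is known to bind an E-box of its own promoter. The search covered 250 bases before the start site, on both strands (CACCTG or CAGGTG), and the element stood 126 bases before the start. Of all 32851 RefSeq windows of this length, 17.2% hold it. The ETS sequence CCGGAAGT (reverse ACTTCCGG), of the kind bound by Fli1 and its relatives, was in 0 of the 8 windows, and 2.88% of all windows hold it. The promoters of Twist1 and Vim are printed beside it as those of the most and the least variable of these genes between libraries. All are from RefSeq on GRCm38.p6, written 5′ to 3′ on the plus strand with the E-box in capitals, and cover chr2:167537945-167538194 (Snai1), chr12:33957421-33957670 (Twist1) and chr2:13574061-13574310 (Vim). A match is a description of the letters and not a site in use.
Snai1: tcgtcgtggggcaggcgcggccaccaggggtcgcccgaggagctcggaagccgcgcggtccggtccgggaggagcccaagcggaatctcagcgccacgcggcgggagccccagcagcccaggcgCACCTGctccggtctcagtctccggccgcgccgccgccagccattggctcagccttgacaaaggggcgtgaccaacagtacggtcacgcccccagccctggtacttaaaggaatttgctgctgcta
Twist1: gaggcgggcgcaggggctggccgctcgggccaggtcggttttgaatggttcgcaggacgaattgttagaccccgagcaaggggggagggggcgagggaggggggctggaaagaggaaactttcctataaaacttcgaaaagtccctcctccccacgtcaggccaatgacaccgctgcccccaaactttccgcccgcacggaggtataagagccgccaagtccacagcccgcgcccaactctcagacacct
Vim: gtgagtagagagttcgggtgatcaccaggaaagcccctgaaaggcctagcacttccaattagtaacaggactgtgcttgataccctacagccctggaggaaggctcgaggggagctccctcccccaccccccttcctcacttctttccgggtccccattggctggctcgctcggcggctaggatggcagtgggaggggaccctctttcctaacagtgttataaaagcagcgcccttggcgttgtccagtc

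Snai2 (ENSMUSG00000022676, chromosome 16, 14705852 to 14709385, plus strand) encodes Slug, the second Snail family repressor. It had 3.76, 7.27 and 4.06 CPM in libraries labelled knockout and 4.44, 6.84 and 4.95 CPM in libraries labelled WT, from 70 to 144 reads. The groups overlapped, and number 2 was again highest in both. Snai2 had a log2 fold change of -0.11 ± 0.30 (SE, 95% interval -0.82 to 0.60, adjusted p = 0.996) without the block and -0.12 ± 0.14 (-0.40 to 0.17, adjusted p = 0.701) in the paired test, and pair 2 had the opposite sign, 0.09, to pairs 1 and 3, -0.23 and -0.28.

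Twist1 (ENSMUSG00000035799, chromosome 12, 33957671 to 33959829, plus strand) encodes a basic helix-loop-helix factor of mesoderm and neural crest mesenchyme. Its counts were 3, 43 and 21 in libraries 1 to 3 labelled knockout and 5, 54 and 19 in those labelled WT, or 0.143, 2.30 and 1.22 CPM in libraries labelled knockout and 0.239, 2.57 and 0.969 CPM in libraries labelled WT. Each library was closer to its same-numbered partner than to any other library. The difference between the highest and lowest number was 3.13 on the log2 scale, against a difference of -0.11 between the groups. Twist1 had a log2 fold change of -0.06 ± 1.07 (SE, 95% interval -2.69 to 2.58, adjusted p = 0.996) without the block and -0.05 ± 0.30 (-0.65 to 0.56, adjusted p = 0.953) in the paired test, so without the block the interval allows a fold of 0.155 to 5.96. The fibroblast marker sum stood in the same order of numbers, and so did its most abundant gene, Col1a1, with 71.0, 508 and 220 CPM in libraries labelled knockout and 88.5, 730 and 239 CPM in libraries labelled WT. Not every marker did: Postn was higher in number 1 than in number 3 in both groups, and Col6a3 and Pdgfra were so in libraries labelled WT. The part of fibroblast RNA in the Twist1 reads was not tested.

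Zeb1 (ENSMUSG00000024238, chromosome 18, plus strand) encodes a repressor with 2 zinc finger clusters and a homeodomain between them. Its level was steady, at 193, 214 and 196 CPM in libraries labelled knockout and 211, 216 and 198 CPM in libraries labelled WT, from 3375 to 4549 reads. Its groups overlapped, and it was lower in the library labelled knockout in 3 of 3 pairs. The log2 fold change was -0.05 ± 0.065 (SE, 95% interval -0.21 to 0.10, adjusted p = 0.996) without the block and -0.05 ± 0.042 (-0.14 to 0.030, adjusted p = 0.505) in the paired test. In the paired test this interval allows a fold of 0.908 to 1.02.

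Zeb2 (ENSMUSG00000026872, chromosome 2, 44983632 to 45117395, minus strand) encodes the paralog of Zeb1, known also as a SMAD-binding factor. It had 46.8, 76.2 and 51.9 CPM in libraries labelled knockout and 58.3, 81.5 and 51.4 CPM in libraries labelled WT. The libraries numbered 2 stood above all others, and the groups overlapped. The log2 fold change was -0.13 ± 0.25 (SE, 95% interval -0.76 to 0.50, adjusted p = 0.996) without the block and -0.13 ± 0.056 (-0.25 to -0.022, adjusted p = 0.14) in the paired test. The difference was widest in pair 1, at -0.32, with -0.10 in pair 2 and 0.01 in pair 3, and the change was -0.049 (adjusted p = 0.755) without pair 1 and -0.20 (adjusted p = 0.0235, passing) without pair 3. The antisense gene Zeb2os overlaps 653 bases of its exons, and had 2 to 3 reads per library labelled knockout and 6 to 7 per library labelled WT. Zeb2os did not pass the low-count filter, and it is named here after its values were seen.

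**Figure D2:**
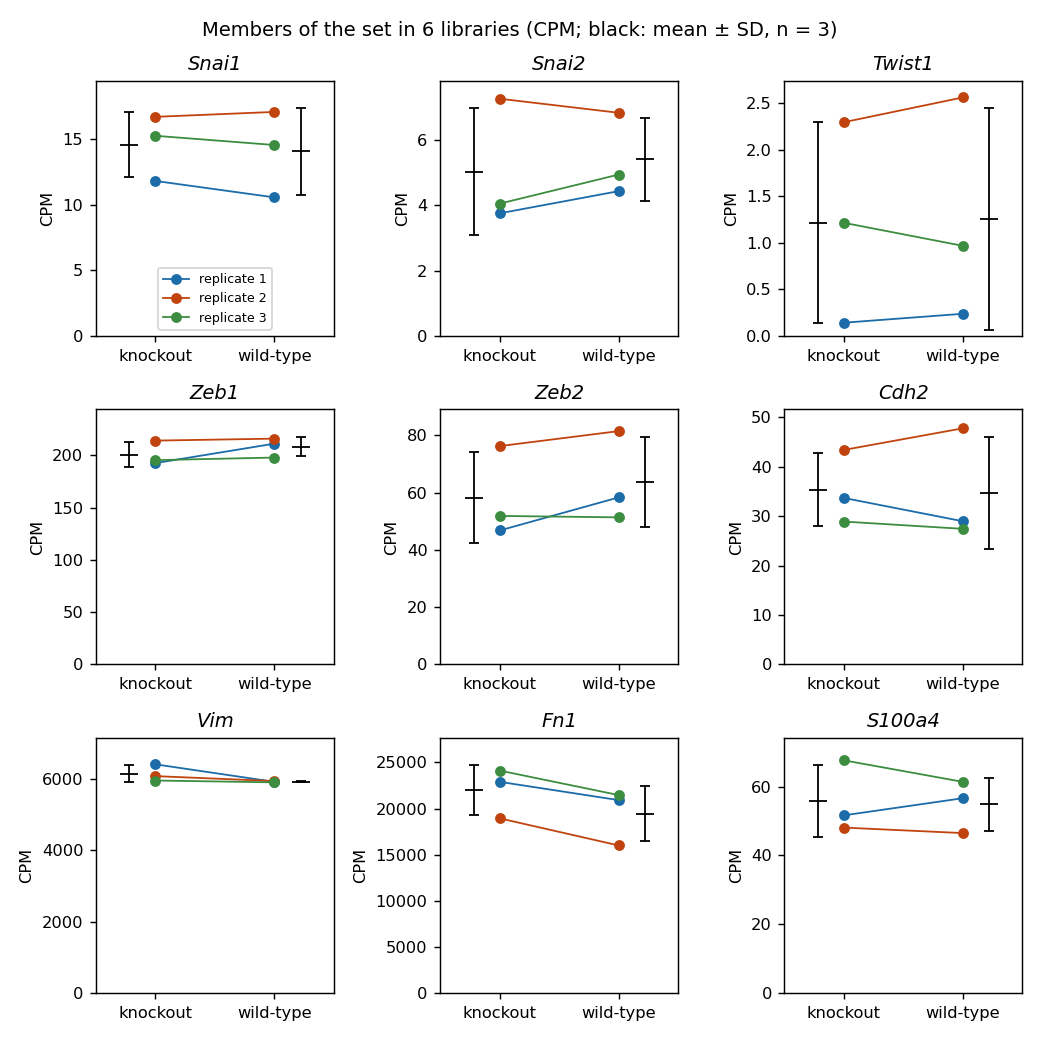
CPM of each of the 9 genes in the libraries labelled knockout (left) and wild-type (right), on axes that start at 0, with lines joining libraries of the same number and black bars for the mean ± SD (n = 3). Number 2 is the highest line in both groups for Snai1, Snai2, Twist1, Zeb1, Zeb2 and Cdh2 and the lowest for Fn1 and S100a4.

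Cdh2 (ENSMUSG00000024304, chromosome 18, minus strand) encodes N-cadherin, which replaces other cadherins at the surface of mesenchymal cells and which endothelial cells also use in contact with pericytes. It had 33.7, 43.4 and 28.9 CPM in libraries labelled knockout and 29.0, 47.8 and 27.4 CPM in libraries labelled WT. The groups overlapped, and number 2 was highest and number 3 lowest in both. For Cdh2 the log2 fold change was 0.02 ± 0.26 (SE, 95% interval -0.63 to 0.68, adjusted p = 0.996) without the block and 0.04 ± 0.066 (-0.093 to 0.17, adjusted p = 0.796) in the paired test. Cdh5, which encodes VE-cadherin, the cadherin of endothelial junctions, averaged 4777 ± 361 CPM in libraries labelled knockout and 4609 ± 210 CPM in libraries labelled WT (SD, n = 3 each), and neither cadherin passed in either test.

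Vim (ENSMUSG00000026728, chromosome 2, 13573927 to 13582826, plus strand) encodes vimentin, the intermediate filament protein of mesenchymal and endothelial cells. It had 6413, 6082 and 5959 CPM in libraries labelled knockout and 5921, 5943 and 5908 CPM in libraries labelled WT, and ranked between 4 and 7 among all genes by count in each library. After TMM scaling, Vim was the only one of the 9 whose groups did not overlap, being higher in all libraries labelled knockout. On the same scale 10.2% of all tested genes had groups that did not overlap, 5.25% higher and 4.96% lower. As a share of unscaled counts Vim had 0.630%, 0.611% and 0.586% in libraries labelled knockout and 0.594%, 0.608% and 0.591% in libraries labelled WT. On that measure its groups overlapped and pair 3 had the opposite sign. The size was small: the log2 fold change was 0.05 ± 0.069 (SE, 95% interval -0.11 to 0.22, adjusted p = 0.996) without the block and 0.05 ± 0.041 (-0.029 to 0.14, adjusted p = 0.507) in the paired test. The pairs gave 0.12, 0.03 and 0.01. With TMM scaling Zeb1, Vim and Fn1, 3 of the 9 genes, had the same sign in all 3 pairs, against 40.7% of all tested genes.

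Fn1 (ENSMUSG00000026193, chromosome 1, 71585520 to 71653200, minus strand) encodes fibronectin, a matrix glycoprotein that endothelial cells themselves deposit. It had the most reads of all genes in 6 of 6 libraries, with no correction for length, at 22896, 18936 and 24116 CPM in libraries labelled knockout and 20912, 15995 and 21460 CPM in libraries labelled WT. Its share of all counts was highest in knockout library 3, at 2.37% (Wilson 95% interval 2.36% to 2.38%), and lowest in WT library 2, at 1.64% (1.63% to 1.64%), where the intervals cover counting error only. The group ranges overlapped, and number 2 was lowest in both groups, but within each number the library labelled knockout was higher. The pairs gave log2 differences of 0.13, 0.24 and 0.17. The log2 fold change was 0.18 ± 0.15 (SE, 95% interval -0.17 to 0.52, adjusted p = 0.996) without the block and 0.18 ± 0.042 (0.096 to 0.27, adjusted p = 0.00256) in the paired test, a fold of 1.13. Without pair 2 the change was 0.15 ± 0.076 (SE) and no longer passed (adjusted p = 0.379).

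S100a4 (ENSMUSG00000001020, chromosome 3, 90603771 to 90606045, plus strand) encodes a small calcium-binding protein, also called fibroblast-specific protein. It had 51.6, 48.1 and 67.6 CPM in libraries labelled knockout and 56.6, 46.5 and 61.4 CPM in libraries labelled WT. As for Fn1, number 3 was highest and number 2 lowest in both groups, while the fibroblast marker sum was highest in number 2. For S100a4 the log2 fold change was 0.02 ± 0.16 (SE, 95% interval -0.36 to 0.40, adjusted p = 0.996) without the block and 0.02 ± 0.055 (-0.093 to 0.13, adjusted p = 0.897) in the paired test. A same-strand gene model, Gm42674, shares 51.7% of its exonic length, so its level is uncertain. Antisense genes also overlap Fn1 (Apol7d, 2.5% of its exonic length) and Zeb1 (Gm10125, 1.93%).

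**Figure D3:**
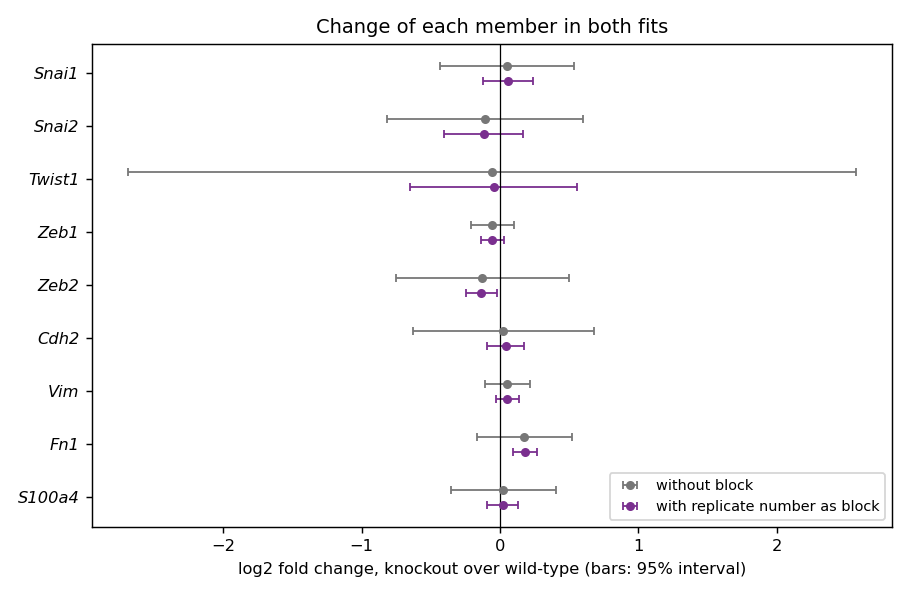
Log2 fold change of each gene, libraries labelled knockout over libraries labelled wild-type, with 95% intervals without the block (grey) and with the replicate number as a block (purple). The paired intervals of Fn1 and Zeb2 exclude 0, and of these only Fn1 passed after adjustment over all genes (adjusted p = 0.00256 for Fn1 and 0.14 for Zeb2).

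**Figure D4:**
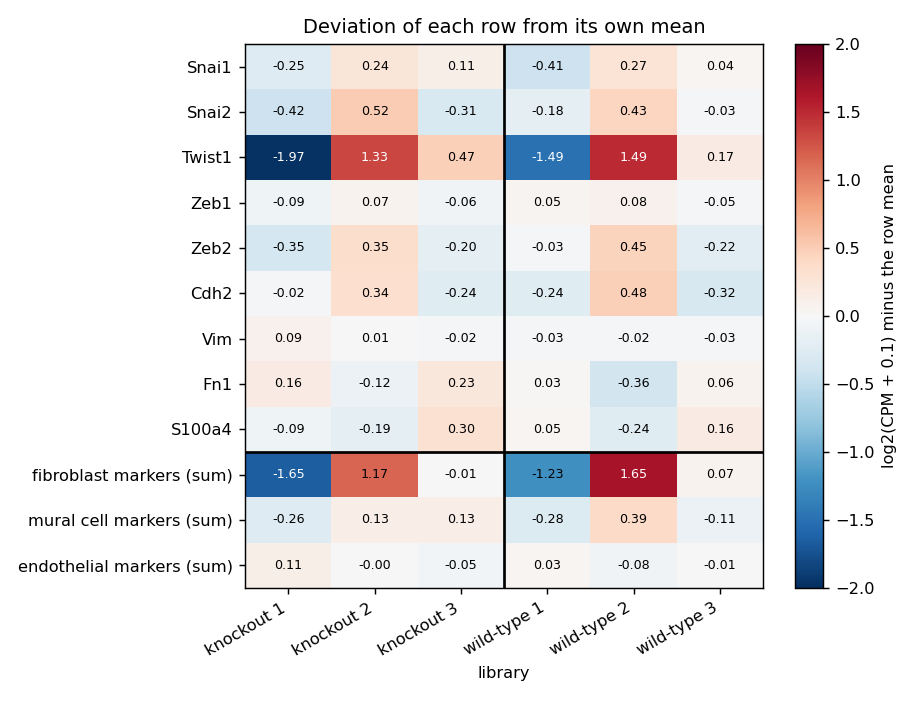
Deviation of log2(CPM + 0.1) from the mean of its row, for the 9 genes and for the summed markers of 3 cell types, in each library. Most of the mural sum is Tagln and Acta2. Twist1 spans -1.97 in knockout library 1 to 1.49 in WT library 2, and the fibroblast sum spans -1.65 to 1.65 in those same libraries, while Vim stays between -0.031 and 0.088.

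Spread by number set the genes apart from each other. The mean of the highest number exceeded that of the lowest by 0.59 for Snai1, 0.77 for Snai2, 0.61 for Zeb2 and 0.69 for Cdh2 on the log2 CPM scale. It did so by 0.39 for Fn1 and 0.45 for S100a4, and by only 0.13 for Zeb1 and 0.055 for Vim. In 8 of the 9 genes, all but Vim, number 2 held either the highest or the lowest level in both groups. The share of all tested genes with this pattern was not counted, so it is not shown to be particular to these genes. As whole libraries, those numbered 2 differed from the other numbers by a chi-square per degree of freedom of 23.1 to 40.7. Between numbers 1 and 3 it was 9.35 to 16.4. The fibroblast marker sum was also highest in number 2 of both groups, and its part in these levels was not tested.

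For each of the 9 genes the 3 genes with the most similar profile over the 6 libraries were found. They were sought among genes with a mean of at least 10 CPM, by the root-mean-square (RMS) difference of centred log2 CPM. Twist1 lay nearest to Ptgs1, Mrc2 and Col6a2, at RMS differences of 0.143, 0.215 and 0.241, where the profile of Twist1 itself had an RMS of 1.31. Snai2 lay nearest to Adgrl1, Dpy19l3 and Hivep2 (0.088 to 0.096, own RMS 0.355), and Snai1 to Rab13, Ndrg4 and Pdia5 (0.064 to 0.073, own RMS 0.253). The nearest to Zeb2 were Phldb2, Zcchc24 and Acsl6 (0.057 to 0.077), and to Cdh2 Auts2, Tmtc4 and Rfk (0.053 to 0.071). Fn1 lay nearest to Edem2, Mapk6 and Dapk2 (0.026 to 0.028), and S100a4 to Cited2, Sec11c and St3gal5 (0.054 to 0.058). Zeb1, with Vps26b, Cnot10 and Pex2, and Vim, with Cbfa2t2, Ino80e and Man1c1, were nearly flat, with own RMS values of 0.067 and 0.042. With only 6 libraries, near matches are a description.

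The other genes of the pathway were taken from lists, and 0 genes of any list passed without the block (edgeR), where 611 of all 12753 genes had an unadjusted p under 0.05 and DESeq2 called 12 genes higher and 7 lower. All calls from here on are from the paired test, which called 4.81% of all tested genes higher and 4.01% lower. Groups did not overlap for 10.2% of all tested genes. No count of a list was tested against these shares. Of 17 other transcription factors of the mesenchymal programme that were tested, 2 fell and 0 rose, and the median log2 fold change was 0.01. Hmga2, a chromatin protein that activates Snail and Twist genes, had 84.0, 79.7 and 99.4 CPM in libraries labelled knockout and 101, 109 and 116 CPM in libraries labelled WT. These groups did not overlap, and Hmga2 fell by 0.31 ± 0.048 on the log2 scale (SE, adjusted p = 8.2e-06), and by 0.25 without pair 2. Prrx1, a homeobox factor of mesenchyme, had 2.66, 35.9 and 8.11 CPM in libraries labelled knockout and 2.82, 60.5 and 8.16 CPM in libraries labelled WT, and its fall of 0.50 rested on pair 2, with -0.035 (adjusted p = 0.964) without it. Klf8, a Krüppel-like repressor of E-cadherin, had a log2 fold change of 0.29 ± 0.14 (SE) and did not pass (adjusted p = 0.25). Gsc had 0 reads in all 6 libraries. Twist2, chosen after its values were seen, had 0.143, 2.57 and 1.51 CPM in libraries labelled knockout and 0.191, 1.90 and 1.38 CPM in libraries labelled WT, and did not pass.

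Among genes listed as restraining the epithelial form of the transition, 9 of 16 were tested and 0 rose or fell, with a median of 0.02. Their roles in endothelium may differ and were not tested. Id3 and Id1, which sequester E proteins, had log2 fold changes of 0.10 and -0.08, and Klf4, a Krüppel-like factor, -0.22, at adjusted p values of 0.187, 0.326 and 0.237. Of 18 cofactors and turnover regulators of Snail and Zeb proteins, 1 rose and 0 fell, with a median of -0.01. Ezh2, the methyltransferase of the Polycomb complex that Snail recruits, had 20.6, 22.8 and 26.6 CPM in libraries labelled knockout and 16.9, 18.3 and 17.4 CPM in libraries labelled WT, and rose by 0.40 ± 0.081 (SE, adjusted p = 0.000437). Its groups did not overlap. Fbxw7, a ubiquitin ligase subunit, and Ajuba, a LIM adaptor of Snail, had log2 fold changes of -0.19 and -0.09 and did not pass (adjusted p = 0.0647 and 0.184).

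In the TGF-β and BMP list, the inducers of EndMT, 27 were tested, of which 4 rose and 4 fell, and the median was -0.03. Tgfb2, a ligand gene, had 171, 133 and 160 CPM in libraries labelled knockout and 153, 107 and 131 CPM in libraries labelled WT, and rose by 0.26 ± 0.044 (SE, adjusted p = 4.68e-05). Each library labelled knockout was above its same-numbered partner, although the groups overlapped. The ligand genes Tgfb1 and Bmp4 rose by 0.16 and 0.17. The co-receptor gene Tgfbr3 fell by 0.34, the receptor gene Bmpr1a by 0.51, the BMP-binding gene Bmper by 0.65 and the mediator gene Smad2 by 0.15. Without pair 2, 2 rose and 2 fell, with DESeq2 3 and 1, and with library size alone 4 and 6. Tgfb1, Bmp4, Bmpr1a, Bmper and Smad2 are named because they passed.

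Of 25 tested mesenchymal and contractile products other than the 9 genes, 7 fell and 2 rose. Their median was -0.04, and it turned to 0.09 without pair 2. The 7 that fell were Col1a1, Col3a1, Lox, Cdh11, Pdgfrb, Fap and Fbn1, and all 7 had their highest level in number 2 of both groups. Lox, a collagen cross-linking oxidase, had 15.4, 111 and 27.3 CPM in libraries labelled knockout and 29.2, 158 and 37.1 CPM in libraries labelled WT, and fell by 0.59 ± 0.066 (SE, adjusted p = 3.61e-07). Cdh11, a mesenchymal cadherin, had 4.14, 55.2 and 16.2 CPM in libraries labelled knockout and 7.11, 82.1 and 19.7 CPM in libraries labelled WT, and fell by 0.51 ± 0.077 (SE, adjusted p = 4.45e-06). Col5a2, a fibrillar collagen chain, went the other way, at 593, 483 and 669 CPM in libraries labelled knockout and 432, 408 and 522 CPM in libraries labelled WT, rising by 0.35 ± 0.042 (SE, adjusted p = 3.62e-08), and the gelatinase gene Mmp2 rose by 0.15. Leaving out pair 2 left 1 of 24 higher and 4 lower, leaving out pair 3 gave 2 of 26 higher and 13 lower, and DESeq2 gave 1 and 3. Col1a1, Col3a1 and Fap are also in the fibroblast list, where 10 were tested, 4 fell (these and Mfap5) and 1 rose (Dcn), at a median of -0.28. Dcn, at 0.51 ± 0.17 (SE), had -0.36 without pair 2 and did not pass there (adjusted p = 0.851). Pdgfrb is also in the mural list, where 10 were tested and 3 fell (with Cspg4 and Notch3), at a median of -0.47. Falls of fibroblast and mural genes numbered 0 and 1 with DESeq2, 6 and 4 with limma-voom, 3 and 2 without pair 2, 6 and 4 without pair 1, and 7 and 6 without pair 3. The mural median was -0.25 without pair 2. Of the 14 fibroblast genes, Col1a1, Col1a2, Col3a1, Thy1 and Col6a3 reached 508, 193, 168, 118 and 94.9 CPM in knockout library 2 and 730, 281, 222, 149 and 141 CPM in WT library 2, while Lum, Dpt and Pi16 were at 0.16 CPM or below in all 6 libraries. The part of other cells in these falls was not tested.

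Among fibronectin receptor genes 10 were tested, of which 3 rose and 2 fell, and the median was 0.02. Itgav, the αv integrin subunit, had 389, 384 and 407 CPM in libraries labelled knockout and 369, 328 and 301 CPM in libraries labelled WT, and rose by 0.24 ± 0.050 (SE, adjusted p = 0.00195). Itgb3 and Itga4, its β3 partner and the α4 subunit, rose by 0.13 and 0.17, and without pair 2 neither passed. Sdc4, a heparan sulfate co-receptor, had 137, 146 and 130 CPM in libraries labelled knockout and 168, 192 and 159 CPM in libraries labelled WT, and fell by 0.33 ± 0.043 (SE, adjusted p = 3.14e-07), with no overlap between the groups. Itgb5 fell by 0.41, at a level of 69.6 CPM in knockout library 2 and 94.3 CPM in WT library 2 against 9.99 to 16.7 CPM in the other 4 libraries. Without pair 2, 1 rose and 2 fell, with library size alone 1 and 2, and with DESeq2, which did not call Itgav (adjusted p = 0.212), 0 and 2.

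Of 9 other S100 and related genes tested, 0 rose or fell, with a median of 0.03, and S100a11, S100a16 and S100a10 had log2 fold changes of 0.12, 0.09 and 0.06 (adjusted p = 0.0557, 0.175 and 0.546). Without pair 3, S100a11 rose by 0.17. Of 9 cadherin and catenin genes, Jup, plakoglobin, rose by 0.17 and Cdh11 fell as given above, while Cdh6 had -0.65 ± 0.28 (SE, adjusted p = 0.156), and the list's median was 0.05. Jup did not pass without pair 2. Cdh1, E-cadherin, was at 0.14 CPM or below in all 6 libraries. Of 10 intermediate filament and plakin genes tested, Lmnb1 rose and Synm fell, and the median was 0.03. Lmnb1, lamin B1 of the nuclear lamina, had 43.9, 50.0 and 56.8 CPM in libraries labelled knockout and 30.2, 35.0 and 37.4 CPM in libraries labelled WT, and rose by 0.55 ± 0.058 (SE, adjusted p = 1.86e-09), with no overlap between the groups. Synm, synemin, fell by 0.20 and did not pass without pair 1, without pair 2 or with DESeq2, and Lmnb2 had 0.17 (adjusted p = 0.129).

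Endothelial genes that are lowered in EndMT showed 3 rises and 1 fall among 20 tested, with a median of 0.04. Emcn, an endothelial sialoglycoprotein, rose by 0.20, Tek, the angiopoietin receptor, by 0.16 and Nos3, the endothelial nitric oxide synthase, by 0.15, while Robo4, a guidance receptor of endothelium, fell by 0.14. Leaving out pair 2 left 0 higher and 1 lower, leaving out pair 1 gave 3 and 3, and library size alone gave 1 and 1. Pecam1, a junction adhesion molecule, averaged 3618 ± 417 CPM in libraries labelled knockout and 3402 ± 396 CPM in libraries labelled WT (SD, n = 3 each), a log2 fold change of 0.09 that did not pass (adjusted p = 0.205).

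**Figure D5:**
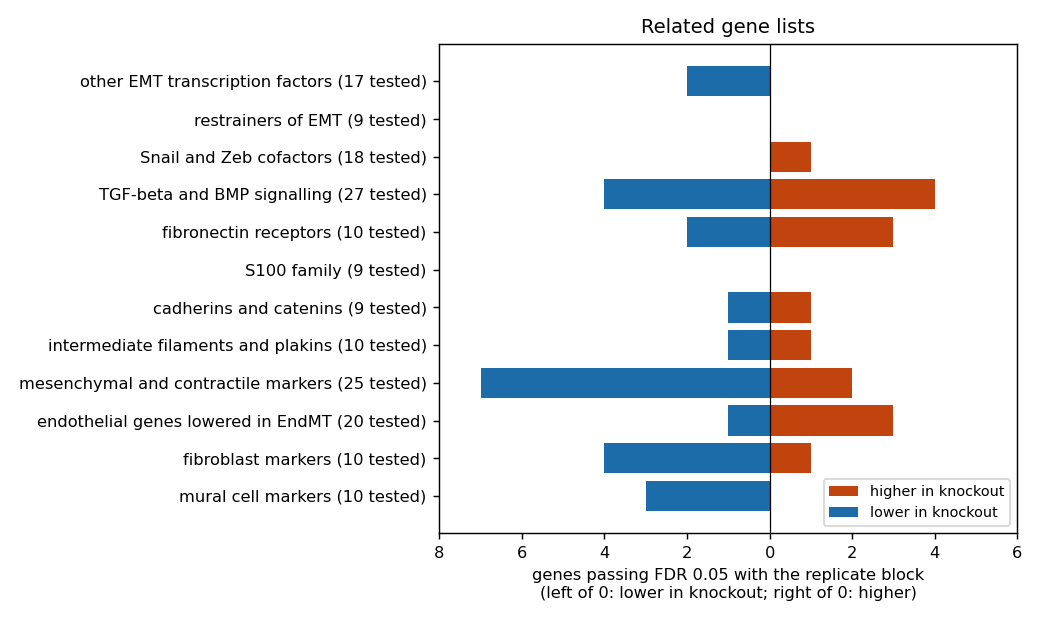
Number of genes of each related list that passed the paired test, higher (right of 0) or lower (left of 0) in libraries labelled knockout, with the number tested beside each name. The mesenchymal and contractile list had 2 higher and 7 lower of 25, and the TGF-β and BMP list 4 and 4 of 27. Over all tested genes 4.81% were higher and 4.01% lower.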

How the data were processed

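Raw counts of reads for each gene symbol in 6 libraries were deposited, without normalisation. STAR 2.6.1d and featureCounts of Subread 1.6.4 are named in the submitters' processing notes, beside Trim Galore 0.6.4, FastQC 0.11.8 and the builds GRCm38 and mm10. Per the labels' protocols, polyadenylated RNA went into a non-stranded or a stranded TruSeq kit, without saying which library had which. Not given in the sources used here were the annotation, the strand setting and the handling of multi-mapping reads, so overlapping, antisense and near-identical genes are uncertain.

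The counts were tested with edgeR 4.0.16 in R 4.3.3 (filterByExpr, TMM, robust quasi-likelihood F test), with DESeq2 1.42.0 and limma 3.58.1 as alternatives. CPM uses TMM-scaled library sizes, with scaling factors of 0.983 to 1.02. Log2 levels add a prior count of 2. The scripts were tested on simulated counts drawn with the replicate number and the spread of the paired fit built in. That test therefore does not check whether the pairing holds.

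The groups share replicate numbers. Deviations from group means correlated at 0.776, 0.857 and 0.652 between same-numbered libraries, so the numbers were taken to pair them. That pairing rests on these correlations and on the shared numbers, which the titles and column headers of both groups carry. No label states a pairing or says what the numbers mean. The paired test leaves 2 residual degrees of freedom in place of 4, and its standard errors rest on a spread shared across genes. Exact permutation tests could not go below a p of 0.1 for 3 against 3 libraries or 0.25 for 3 pairs. Every pair of libraries differed beyond counting noise, with a chi-square per degree of freedom of at least 5.44.

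The members, the lists and the rules were chosen with earlier results of these data known. Named genes were the 9 members, Fli1, up to 3 genes per list with the smallest unadjusted p in the paired test, the 2 most abundant of 4 marker lists and the 3 nearest profiles of each member. Other genes, those that make up a count of calls and those at or near 0, were named after their values were seen. No set test was run. Of the genes counted in the lists, 1 is not reported here by name.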

Additional observations from a re-analysis of the deposited data

How the results depend on the processing

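Without the block, no member passed under any alternative other than the replicate block (Fn1, 0.18), and Zeb1, Vim and Fn1 kept their direction under all of them. Leaving out 1 library moved Fn1 between 0.049 (without WT library 2) and 0.27 (without knockout library 2), Vim between 0.023 and 0.077 and Zeb1 between -0.10 and -0.025. With library size alone Cdh2 and S100a4 turned to -0.0033 and -0.0017. Leaving out 1 library gave log2 fold changes from -0.12 to 0.21 for Snai1, -0.47 to 0.094 for Snai2 and -0.92 to 1.0 for Twist1. It gave -0.37 to 0.082 for Zeb2, -0.15 to 0.32 for Cdh2 and -0.14 to 0.12 for S100a4. The direction of these 6 is therefore not settled without the block. Over all genes, DESeq2 called 12 higher and 7 lower, limma-voom and an FDR of 0.01 called 0 lower, leaving out 1 library gave 0 to 1 lower, and the replicate block gave 613 and 511. The replicate block moved 1 member, Fn1, to higher and changed no other call of a member.

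In the paired test, S100a4 turned to -0.0078 with library size alone. Snai1, Snai2 and Zeb2 kept their sign with any pair left out, at 0.013 to 0.11, -0.26 to -0.047 and -0.20 to -0.049. None of these 3 passed with all pairs. Leaving out a pair gave -0.22 to 0.13 for Twist1 (0.0041 without pair 1), -0.049 to 0.15 for Cdh2 and -0.045 to 0.095 for S100a4. It gave 339 to 603 genes higher and 205 to 600 lower, and 0 to 1 members in each direction: Fn1 was lost without pair 2, and Zeb2 passed as lower without pair 3. DESeq2 with the block called 262 higher and 111 lower. For these shifts the cause was not tested. The low counts of Twist1 and Snai2 limit what can be seen of them.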

Other observations

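Of 14 leukocyte markers, 4 had 0 reads in all 6 libraries (Tyrobp, Cd3e, Adgre1 and Rac2), and 4 were tested. In the paired test 2 rose, Laptm5 by 0.33 and Coro1a by 0.32, and Laptm5 made up most of the list's sum, at 225, 110 and 203 CPM in libraries labelled knockout and 187, 79.4 and 167 CPM in libraries labelled WT. Coro1a no longer passed with library size alone, with DESeq2 or with any 1 pair left out. Aif1 had 0.34 (adjusted p = 0.59). Of 8 epithelial markers 4 were tested and 0 passed, with list sums of 8.6 to 16.5 CPM in libraries labelled knockout and 8.2 to 14.4 CPM in libraries labelled WT. Of 14 neural and glial markers 4 were tested and 0 passed, with list sums of 15.5 to 17.8 CPM in libraries labelled knockout and 14.4 to 15.6 CPM in libraries labelled WT.

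Among 9 brain endothelial markers tested, 1 rose and 0 fell. Slc7a5, a large neutral amino acid transporter, had 199, 131 and 192 CPM in libraries labelled knockout and 169, 110 and 153 CPM in libraries labelled WT, and rose by 0.28 ± 0.042 on the log2 scale (SE, adjusted p = 7.39e-06). Itm2a and Slco1a4 had -0.16 and -0.49 and did not pass (adjusted p = 0.14 and 0.233).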
